A study of Mus musculus with 6 samples.

Results

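Nr1d1, Ciart, Nr4a1 and Hspb1 were examined as a check on collection time and handling stress in the livers of mice lacking Usp28 and of wild-type mice. The genes were chosen by symbol and are 4 of the 389 genes of the authors' deposited table, called the listed genes here. Every listed gene had already been selected for a difference between the genotypes, so that a difference in these 4 genes follows from their being listed. Liver was taken from 3 samples with a whole-body Usp28 knockout (KO) and 3 samples labelled wild-type (WT). All 6 came from mice fed a methionine-choline deficient diet, a model of steatohepatitis, for 4 weeks from 8 weeks of age. The labels do not give the hour of collection, the feeding state, the sex or the strain, nor whether the samples of a group were separate animals, so p-values measure only the spread between these samples.

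The liver clock is a transcriptional loop. CLOCK and BMAL1 (the product of Arntl) bind E-boxes and drive their own repressors, and the resulting daily rhythm gives the level of such genes a strong dependence on the hour at which tissue is taken. Nr1d1 encodes REV-ERBα, a nuclear receptor without activation function that represses Arntl and also metabolic genes of liver. Ciart encodes CHRONO, a repressor that acts on CLOCK and BMAL1. Nr4a1 encodes NUR77, an orphan nuclear receptor and an immediate early gene, induced within a short time by cAMP, growth factor and stress signals without new protein synthesis. Hspb1 encodes the small heat shock protein HSP25, which binds unfolded proteins and actin filaments and is induced by the heat shock factor HSF1.

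The promoters of the 4 genes are shown because response elements in promoters are a known means by which such genes follow the clock or a stimulus. Each line is the 250 bases before the RefSeq transcription start (GRCm38.p6), 5′ to 3′ on the gene's own strand. Capitals mark E-boxes (CACGTG) in Ciart, cores of the cAMP response element (CRE; TGACG, which reads CGTCA on the other strand) in Nr4a1, and a heat shock element of inverted units (GAANNTTC) in Hspb1.
Nr1d1, chr11:98775378-98775627, minus strand: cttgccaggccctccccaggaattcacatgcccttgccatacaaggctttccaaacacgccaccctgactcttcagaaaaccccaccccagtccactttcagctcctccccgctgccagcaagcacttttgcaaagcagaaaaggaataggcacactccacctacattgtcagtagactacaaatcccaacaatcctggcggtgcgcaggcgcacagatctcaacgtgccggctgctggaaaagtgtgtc
Ciart, chr3:95882229-95882478, minus strand: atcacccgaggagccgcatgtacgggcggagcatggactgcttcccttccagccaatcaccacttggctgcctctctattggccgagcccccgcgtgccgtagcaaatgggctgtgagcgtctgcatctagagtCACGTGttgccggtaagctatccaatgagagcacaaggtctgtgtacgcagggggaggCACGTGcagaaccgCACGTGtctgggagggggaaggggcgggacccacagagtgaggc
Nr4a1, chr15:101266596-101266845, plus strand: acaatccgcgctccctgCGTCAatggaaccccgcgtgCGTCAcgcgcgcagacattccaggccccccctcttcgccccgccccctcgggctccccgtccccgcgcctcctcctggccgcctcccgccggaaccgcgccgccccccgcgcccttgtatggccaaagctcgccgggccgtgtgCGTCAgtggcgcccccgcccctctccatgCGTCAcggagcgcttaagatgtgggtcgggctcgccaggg
Hspb1, chr5:135887669-135887918, plus strand: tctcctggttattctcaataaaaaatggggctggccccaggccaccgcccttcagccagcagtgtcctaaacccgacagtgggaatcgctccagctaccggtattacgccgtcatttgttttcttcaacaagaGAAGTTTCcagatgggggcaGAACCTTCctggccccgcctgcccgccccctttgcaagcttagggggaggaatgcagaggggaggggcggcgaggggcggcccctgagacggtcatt

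Ciart held 3 E-boxes, the nearest of them 44 to 39 bases before the start. At least 1 E-box was present in 6.02% of 32817 promoter windows of the same length, and at least 3 in 0.0609% (20 windows). Nr4a1 held 4 CRE cores, all on the opposite strand. At least 1 was present in 17.7% of windows and at least 4 in 0.137%. Hspb1 held 2 of the heat shock elements, at 117 to 110 and 97 to 90 bases before the start, and 1 CRE core at 141 to 137. At least 1 such heat shock element was present in 6.69% of windows and at least 2 in 0.225%. The Nr1d1 window held none of these. The other letters searched on both strands were AGGTCA (14.0% of windows), TTATGTAA (0.817%), TTACGTAA (0.113%), TGACGTCA (1.55%, which contains TGACG on both strands), TTCNNGAA (7.16%) and TATAAA (12.4%), and none was found in the 4 windows. A loose form of the serum response element, present in 67.1% of windows, matched in Nr1d1 (2 matches), Nr4a1 (2) and Hspb1 (3). A match describes the letters only.

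**Figure D1:**
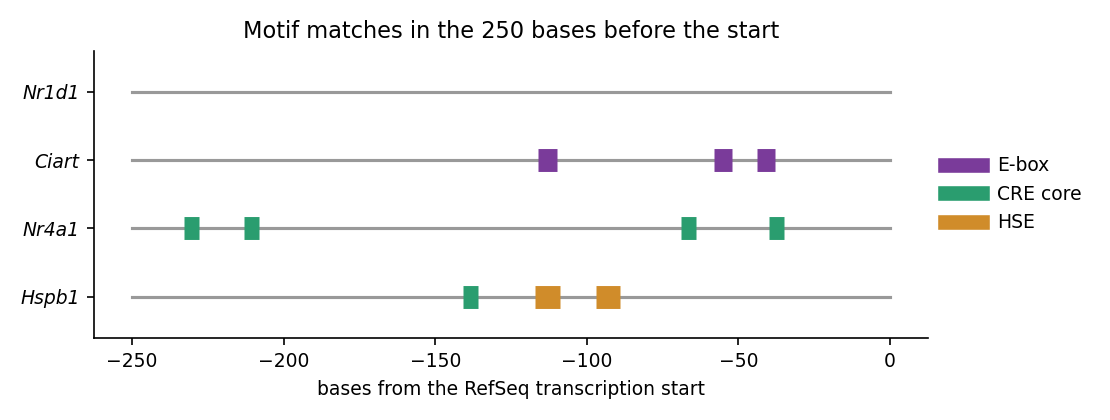
Positions of motif matches in the promoters of the 4 genes, as bases from the RefSeq transcription start, with coloured blocks for E-boxes, CRE cores and heat shock elements (HSE). Ciart has 3 E-boxes, Nr4a1 has 4 CRE cores, Hspb1 has 2 heat shock elements and 1 CRE core, and Nr1d1 has no match to these.

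All 4 genes were lower in KO liver, Ciart and Nr4a1 about as much as each other and Nr1d1 and Hspb1 by less. The log2 fold changes of KO over WT were -1.06 ± 0.40 for Nr1d1, -2.04 ± 0.46 for Ciart, -1.95 ± 0.31 for Nr4a1 and -1.02 ± 0.35 for Hspb1 (SE, edgeR's quasi-likelihood test on counts). All 4 passed an adjusted p of 0.05, as did 99.7% of the listed genes (59.9% as lower and 39.8% as higher in KO), so nothing is read from that count. KO values did not overlap WT values in any of the 4, nor in 93.3% of the listed genes (55.0% with every KO value the lower). The median log2 fold change over all listed genes was -1.10. In the authors' deposited table the smallest absolute log2 fold change was 1.004, and Hspb1 (-1.02) and Nr1d1 (-1.06) lay just inside it, with 10 and 39 listed genes closer to it. With 3 against 3 libraries an exact permutation test of log2(FPKM + 0.1) cannot go below p = 0.1 (two-sided), and each of the 4 genes reached that value. In bulk liver, fewer cells of a type and less RNA per cell cannot be told apart.

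Recovered depth was 20348743 to 24153848 reads per library, and the listed genes took 3.73% to 8.81% of it. Usp28 had no row among the listed genes, so no check of the genotype labels was possible from it. None of the 14 hepatocyte markers searched had a row, so the tissue label was not checked either. Neither did the markers of cholangiocytes, stellate cells, endothelium, Kupffer cells, lymphocytes or red cells. Of 13 monocyte and macrophage markers 6 were listed (Itgam, Itgax, Cd14, Lgals3, Gpnmb and Mmp12), all lower in KO, against 59.9% of all listed genes. In Cd14 and Lgals3 the groups overlapped in FPKM. Without WT replicate 3 these 2 were at -0.43 and -0.70 on the log2 scale (edgeR adjusted p = 0.156 and 0.0641). In that run 4 of the 6 passed, and 372 of all 389 listed genes. The summed FPKM of the 6 ran from 30.8 to 168 in WT, highest in replicate 3, and from 20.7 to 28.9 in KO. Lcn2, the 1 listed neutrophil marker of 9, ran from 28.8 to 120 FPKM in WT and from 8.02 to 12.4 in KO. The part of these cells in the results below was not tested.

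**Figure D2:**
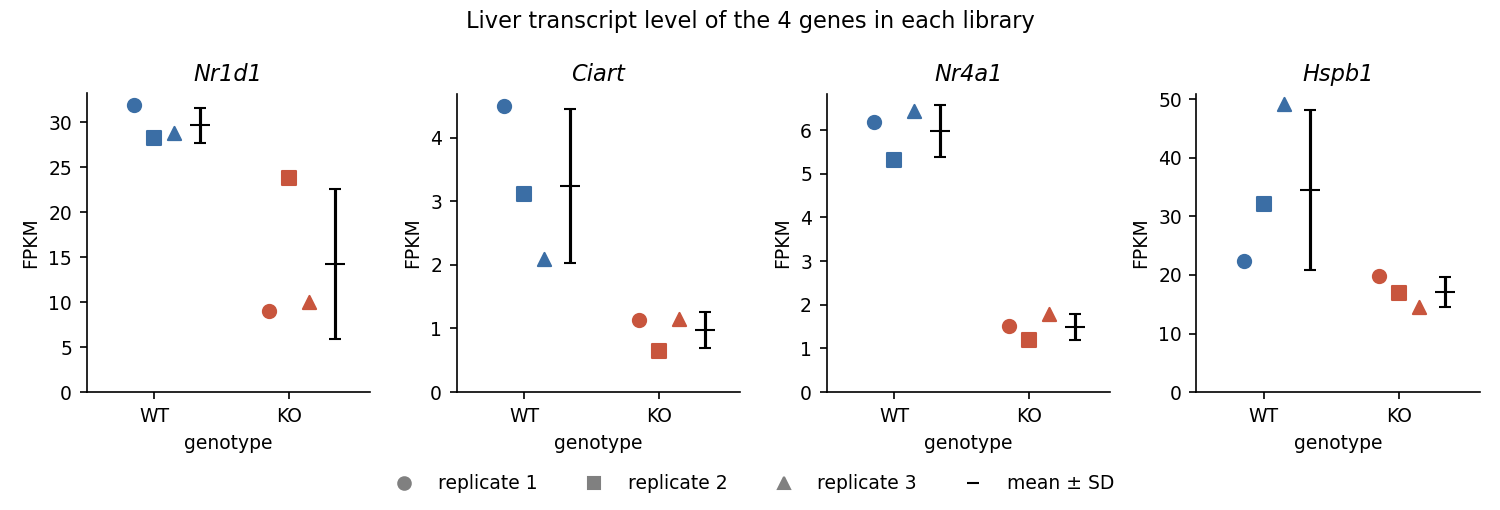
FPKM of Nr1d1, Ciart, Nr4a1 and Hspb1 in each of 3 WT and 3 KO liver libraries (symbols mark the replicate number, bars the mean ± SD). Each gene has its lowest WT library above its highest KO library, by 1.19-fold in Nr1d1, 1.82-fold in Ciart, 2.98-fold in Nr4a1 and 1.13-fold in Hspb1.

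Nr1d1 (ENSMUSG00000020889, chromosome 11, 98767932 to 98775333, minus strand) stood at 31.9, 28.3 and 28.8 FPKM in WT replicates 1, 2 and 3. In the corresponding KO libraries it stood at 8.97, 23.8 and 9.98 FPKM. The WT libraries were close together, KO replicates 1 and 3 were low, and KO replicate 2 was only a little below the lowest WT library. WT averaged 29.7 ± 1.98 FPKM and KO 14.3 ± 8.30 FPKM (mean ± SD of 3 libraries per group), a 2.08-fold difference (edgeR adjusted p = 0.0252). These values rest on 1594 to 1858 reads per WT library and on 509, 1434 and 593 reads in KO replicates 1, 2 and 3. The exact 95% counting interval of KO replicate 2 was 1361 to 1510 reads and that of KO replicate 3 was 546 to 643, so the gap between them is far beyond counting error. Counting intervals cover counting error only. The 3' end of Nr1d1 overlaps Thra, the thyroid hormone receptor gene on the other strand, over 263 of 3077 exonic bases (8.55%). Whether reads were counted by strand is not given in the sources used here, so a share of Thra reads in the Nr1d1 count cannot be told apart.

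The spread of Nr1d1 differed between the genotypes more than that of most listed genes. On the log2(FPKM + 0.1) scale its SD was 0.09 over the WT libraries, where 379 of the 389 listed genes had a larger one, and 0.77 over the KO libraries, where 10 had a larger one. The median SD of the listed genes was 0.57 in WT and 0.23 in KO. KO replicate 2 exceeded the mean of the other KO libraries by 1.32 on this scale. Of the listed genes 1 had a larger excess there: Nr0b2, which encodes the repressor SHP (1.40). The median listed gene had an excess of 0.12, and KO replicate 2 was the highest KO library in 164 of the 389. The Nr1d1 call was lost when certain single libraries were left out, as were the calls of other listed genes. Without KO replicate 1 the log2 fold change was -0.81 (edgeR adjusted p = 0.102), without KO replicate 3 -0.86 (edgeR adjusted p = 0.104) and without WT replicate 1 -1.0 (edgeR adjusted p = 0.0530). In these runs 282, 314 and 314 of the 389 listed genes passed, in place of 388. Without KO replicate 2 the log2 fold change of Nr1d1 was -1.65 (edgeR adjusted p = 0.0219).

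**Figure D3:**
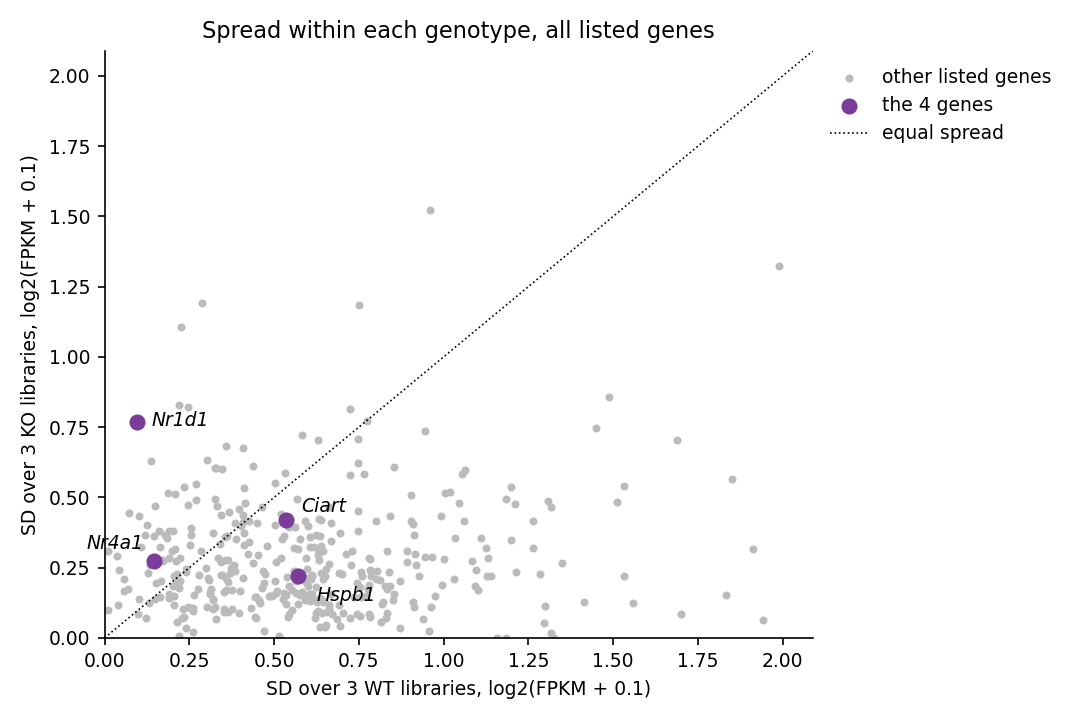
Standard deviation over the 3 KO libraries against that over the 3 WT libraries for the 389 listed genes, both on the log2(FPKM + 0.1) scale, with the 4 genes in purple and a dotted line of equal spread. Nr1d1 lies at 0.09 in WT and 0.77 in KO, Nr4a1 at 0.14 and 0.27, Ciart at 0.54 and 0.42, and Hspb1 at 0.57 and 0.22.

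Ciart (ENSMUSG00000038550, chromosome 3, 95878503 to 95882251, minus strand) was the lowest of the 4 genes per length. It stood at 4.50, 3.12 and 2.09 FPKM in the WT libraries and at 1.13, 0.65 and 1.15 FPKM in the KO libraries (replicates 1, 2 and 3 in that order, as in all such triples here). WT replicate 1 was the highest library and WT replicate 3 the lowest of its group, still above every KO library. WT averaged 3.24 ± 1.21 FPKM and KO 0.977 ± 0.283 FPKM (mean ± SD, 3 libraries per group), a ratio of 3.31. Reads numbered 123, 89 and 55 in WT and 17, 21 and 27 in KO, and edgeR on these counts gave a 4.12-fold difference (adjusted p = 0.00590), or a log2 fold change of -1.34 in place of -2.04 with DESeq2's size factors. The KO counts differed among themselves by no more than counting error (chi-square per degree of freedom 0.997), whereas the WT counts differed by more (14.6). The 95% counting interval of the lowest library, KO replicate 1, was 9.90 to 27.2 reads.

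FPKM and counts ordered the KO libraries differently for Ciart. KO replicate 2 was the lowest in FPKM (0.65), but in counts per unit of depth (CPM) the lowest was KO replicate 1 (0.815), followed by KO replicate 2 (0.949) and KO replicate 3 (1.24). The transcript length implied by count, FPKM and depth was 0.721, 1.46 and 1.08 kb for Ciart in KO replicates 1, 2 and 3, and 1.18 to 1.34 kb in WT. The same length differed between libraries by at most 1.001-fold in Nr1d1 and Hspb1 and by 1.13-fold in Nr4a1. Ciart has 6 annotated transcripts, more than the 4 of Nr4a1 and the 2 each of Nr1d1 and Hspb1. The order of the KO libraries in Ciart is therefore not settled by these values. No left-out library ended the Ciart call, and its log2 fold change ranged from -2.27 (without WT replicate 3) to -1.67 (without WT replicate 1).

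The 2 clock repressors did not keep a fixed proportion between libraries. The ratio of Nr1d1 to Ciart FPKM within a library, which does not depend on depth, was 7.09, 9.06 and 13.8 in WT replicates 1, 2 and 3. It was 7.94, 36.6 and 8.68 in KO replicates 1, 2 and 3. In FPKM, KO replicate 2 stood apart and the other KO libraries lay within the WT range. The ratio of counts was 14.4, 20.9 and 29.0 in WT and 29.9, 68.3 and 22.0 in KO, so that KO replicate 1 also lay above the WT libraries and KO replicate 3 within their range. The groups overlapped on both scales. The log2 ratio averaged 3.26 ± 0.48 over the WT libraries and 3.77 ± 1.24 over the KO libraries (mean ± SD), a difference of 0.50 (two-sided exact permutation test, p = 0.7). Without KO replicate 2 the difference was -0.21 (exact permutation p = 0.8). With counts in place of FPKM it was 0.79 (exact permutation p = 0.2).

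Of the 43 clock genes searched, 6 were listed. The core activators Clock, Npas2, Arntl and Arntl2 had no row, and of 11 repressors the listed ones were Nr1d1 and Ciart. Nr1d2, the Per and Cry genes, Bhlhe40, Bhlhe41 and Nfil3 had no row. Nor did the output factors Dbp, Tef and Hlf or any of 10 kinases and ligases that act on clock proteins. No level of a gene without a row is reported here, and nothing is read from its having none.

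Of 15 output genes of the liver clock 4 were listed, 3 lower and 1 higher in KO (median log2 fold change -1.07, against -1.10 for all listed genes). Alas1, the rate-limiting enzyme of haem synthesis, stood at 1345, 958 and 768 FPKM in WT and at 270, 513 and 670 in KO. Por, which encodes the reductase that supplies electrons to cytochrome P450 enzymes, stood at 347, 415 and 249 FPKM in WT and at 130, 184 and 153 in KO. Gys2, which encodes liver glycogen synthase, stood at 157, 99.4 and 55.2 FPKM in WT and at 47.2, 53.2 and 43.5 in KO. In these 3 genes, as in 93.3% of all listed genes, the groups did not overlap in FPKM. In CPM, KO replicate 2 of Gys2 was above WT replicate 3, at 135 against 133. WT replicate 3 was the lowest of its group in each of the 3 genes and lay near a KO library in Alas1 and Gys2. The log2 fold changes were -1.06 ± 0.40 for Alas1, -1.07 ± 0.33 for Por and -1.12 ± 0.39 for Gys2 (SE, edgeR adjusted p = 0.0246, 0.0136 and 0.0193). Cyp7a1, which encodes the first enzyme of the classic bile acid pathway, went the other way, from 13.4, 7.0 and 7.01 FPKM in WT to 30.4, 26.5 and 14.1 in KO (log2 fold change 1.38 ± 0.40, SE, edgeR adjusted p = 0.0115). Of the 4 output genes 1 passed without KO replicate 1, where 282 of the 389 listed genes passed. When WT replicate 1, or KO replicate 2 or 3, was left out 2 passed, where 314, 278 and 314 of all listed genes passed. Gys2 was at -0.72 without WT replicate 1 (edgeR adjusted p = 0.0946).

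Of 11 genes known to be repressed through REV-ERB response elements 2 were listed, and both fell in KO, as Nr1d1 did. Of all listed genes 59.9% passed as lower, so nothing is read from the shared direction. The median log2 fold change of the 2 genes was -1.51, against -1.10 for all listed genes. Insig2, whose product retains the sterol sensor SCAP in the endoplasmic reticulum, stood at 241, 269 and 189 FPKM in WT and at 74.5, 73.1 and 82.8 in KO (log2 fold change -1.50 ± 0.31, SE, edgeR adjusted p = 0.00462). Ppargc1a, which encodes the coactivator PGC-1α, stood at 10.4, 6.59 and 2.95 FPKM in WT and at 1.46, 3.03 and 1.93 in KO (log2 fold change -1.52 ± 0.40, SE, edgeR adjusted p = 0.00923). KO replicate 2, the KO library with the high Nr1d1 level, was the lowest library in Insig2. It lay close below KO replicate 1 there (73.1 against 74.5 FPKM, 100 against 116 CPM), so nothing is read from that rank. In Ppargc1a, KO replicate 2 lay close to WT replicate 3, above it in FPKM (3.03 against 2.95) and below it in CPM (14.5 against 16.9). The order of these libraries in Ppargc1a is therefore not settled.

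Nr4a1 (ENSMUSG00000023034, chromosome 15, 101254269 to 101274795, plus strand) had the widest gap between the groups among the 4 genes. It stood at 6.18, 5.31 and 6.44 FPKM in the WT libraries and at 1.51, 1.19 and 1.78 FPKM in the KO libraries. All WT libraries were high and all KO libraries low. The SD on the log2(FPKM + 0.1) scale was 0.14 in WT and 0.27 in KO, against 0.57 and 0.23 for the median listed gene. WT averaged 5.98 ± 0.592 FPKM and KO 1.49 ± 0.295 FPKM (mean ± SD, 3 libraries per group), from 278 to 326 reads per WT library and 65 to 96 per KO library. edgeR gave a 3.86-fold difference (adjusted p = 0.00238). The call held in every alternative run, with adjusted p from 7.66e-07 to 0.0219, and the log2 fold change ranged from -2.10 to -1.81 when 1 library was left out. With DESeq2's size factors in edgeR it was -1.29. In the authors' deposited table its p-value was 2.72e-15, the 14th smallest of the 389 genes. The chi-square per degree of freedom, which is 1 for counting error alone, was 3.50 in WT and 3.20 in KO. It was 7.63 and 284 for Nr1d1, 14.6 and 0.997 for Ciart, and 99.4 and 7.62 for Hspb1 (WT and KO). For the same relative spread this measure grows with the number of reads.

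Other immediate early genes were listed in both directions. Of 51 symbols searched 5 had a row, 4 lower and 1 higher in KO (median log2 fold change -1.33, against -1.10 for all listed genes). Fos, Jun, Egr1, Ier2, Atf3, Dusp1, Nr4a2 and Nr4a3 were among those without a row. Btg2, an antiproliferative gene, stood at 24.5, 27.0 and 36.7 FPKM in WT and at 4.07, 9.42 and 4.79 in KO (log2 fold change -2.27 ± 0.39, SE, edgeR adjusted p = 0.00290). Nfkbiz, which encodes the NF-κB cofactor IκBζ, stood at 2.84, 2.56 and 2.48 FPKM in WT and at 1.10, 1.06 and 0.97 in KO (log2 fold change -1.33 ± 0.30, SE, edgeR adjusted p = 0.00586). Socs3, a feedback inhibitor of cytokine signalling, stood at 5.71, 2.89 and 3.37 FPKM in WT and at 1.47, 1.98 and 1.74 in KO (log2 fold change -1.20 ± 0.35, SE, edgeR adjusted p = 0.0116). Without WT replicate 1, its highest library, Socs3 did not pass (log2 fold change -0.85, edgeR adjusted p = 0.0570). Phlda1 rose, from 6.32, 4.78 and 6.88 FPKM in WT to 10.1, 19.1 and 17.1 in KO (log2 fold change 1.36 ± 0.34, SE, edgeR adjusted p = 0.00796). None of these 5 genes had a KO library inside the WT range. The groups did not overlap in 93.3% of all listed genes, so nothing is read from that.

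**Figure D4:**
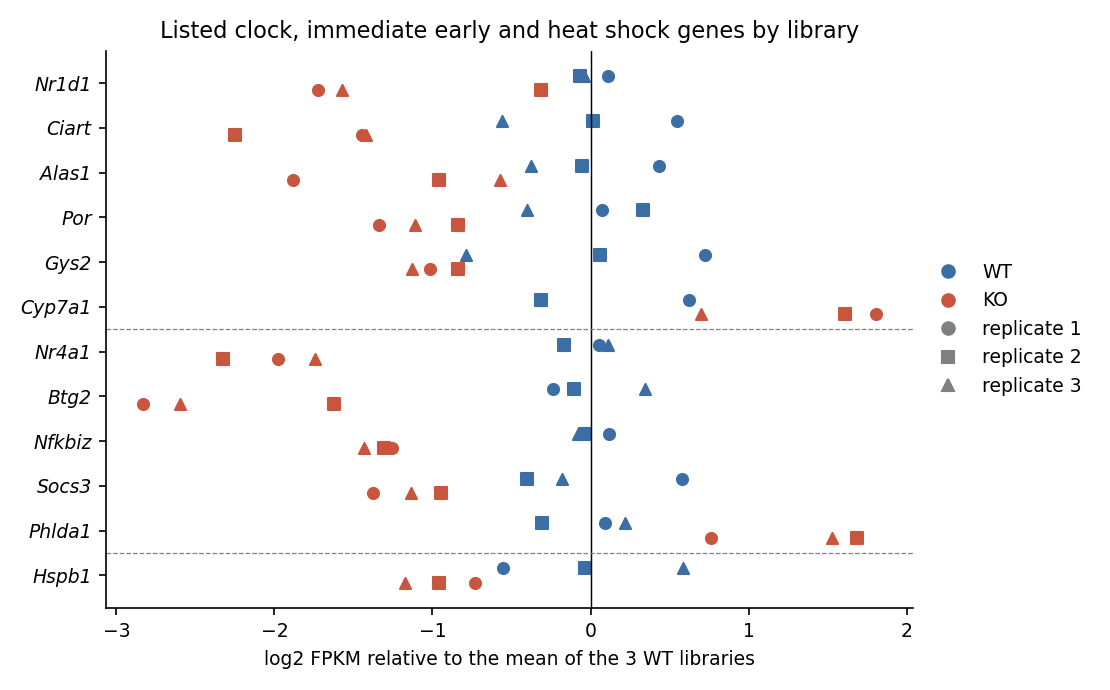
Log2 FPKM of the 12 listed clock, immediate early and heat shock genes in each library, relative to the mean of the 3 WT libraries (blue WT, red KO, symbols mark the replicate number, dashed lines part the 3 gene groups). Cyp7a1 and Phlda1 lie to the right in KO and the other 10 to the left, and KO replicate 2 of Nr1d1 lies close to the WT libraries.

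Hspb1 (ENSMUSG00000004951, chromosome 5, 135887919 to 135889563, plus strand) varied mostly within the WT group. It stood at 22.3, 32.1 and 49.3 FPKM in the WT libraries and at 19.8, 16.9 and 14.6 FPKM in the KO libraries. WT replicate 3 was high, whereas WT replicate 1 lay 1.13-fold above the highest KO library. WT averaged 34.6 ± 13.6 FPKM and KO 17.1 ± 2.60 FPKM (mean ± SD, 3 libraries per group), from 411, 700 and 905 reads in WT replicates 1, 2 and 3 and 287 to 372 reads in KO. edgeR gave a 2.02-fold difference (adjusted p = 0.0184). WT replicate 3 exceeded the mean of the other WT libraries by 0.88 on the log2(FPKM + 0.1) scale, against 0.31 for the median listed gene. Of the 389 listed genes 115 had a larger excess, and WT replicate 3 was the highest WT library in 202. WT replicate 3 also held the highest sum of macrophage markers (168 FPKM, against 67.1 and 30.8 in WT replicates 1 and 2). The part of those cells in the Hspb1 level was not tested. Hspb1 was at -0.67 without WT replicate 3 (edgeR adjusted p = 0.0363). Without KO replicate 2 it was -1.01 (edgeR adjusted p = 0.0603) and without KO replicate 3 it was -0.91 (edgeR adjusted p = 0.0698), so the call was lost both times. In these 2 runs 278 and 314 of the 389 listed genes passed, in place of 388.

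Hspb1 was the 1 listed gene of 30 heat shock and co-chaperone genes searched. Hspa1a, Hspa1b, Hspa8, Hsph1, Dnajb1, Hsp90aa1, Bag3 and Hmox1 had no row. Dnajb9, a co-chaperone gene that was not among the 30, had a row and went the other way. It was higher in KO (log2 fold change 1.31 ± 0.43, SE, edgeR adjusted p = 0.0168). Of 20 genes induced by glucocorticoids, hormones that follow both the hour of day and handling, the metallothionein genes Mt1 and Mt2 were listed and both fell. Of all listed genes 59.9% passed as lower in KO. The summed FPKM of Mt1 and Mt2 was 399.6, 550.3 and 760 over the WT libraries and 80.5, 122 and 98.9 over the KO libraries. WT replicate 1 was the lowest WT library and replicate 3 the highest, as for Hspb1. Fkbp5, Tsc22d3, Per1, Sgk1 and Tat had no row.

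Genes that follow feeding also differed between the groups, and their levels are given because the hour of collection and feeding cannot be told apart here. Of 16 genes raised by fasting 5 were listed and all fell in KO. Of 14 raised by feeding 7 were listed and all rose. Of all listed genes 59.9% passed as lower and 39.8% as higher in KO, and each was listed for a difference between the genotypes. Both lists were chosen with earlier results of these data known, so nothing is read from the shared direction within each. Relative to the WT mean on the log2 scale, the median listed feeding gene was at -0.52, -0.61 and 0.91 in the WT libraries and at 1.77, 1.91 and 1.65 in KO. The median listed fasting gene was at 0.74, 0.59 and -0.97 in WT and at -1.94, -1.61 and -1.56 in KO. WT replicate 3 thus lay between the groups in both lists. Among the 4 genes, its Nr1d1 and Nr4a1 levels lay with the other WT libraries. Its Ciart level was the lowest of WT and nearest to KO (2.09 FPKM, against 4.50 and 3.12). Its Hspb1 level was the highest of WT (49.3 FPKM, against 22.3 and 32.1). The part of feeding in these levels was not tested. KO replicate 2, which stood apart in Nr1d1, lay near the other KO libraries in both the feeding and the fasting list. Without KO replicate 2, 3 of the 5 fasting genes and 4 of the 7 feeding genes passed (278 of all 389 listed genes), and without WT replicate 2, 4 of the 7 feeding genes (345 of all 389).

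The 4 genes had different profiles over the 6 libraries. Likeness was measured as the root mean square difference in log2(FPKM + 0.1) after centring each gene, over 6 libraries and against 319 other listed genes with a mean of at least 1 FPKM. Among the 4, Ciart and Nr4a1 were closest (0.39), and Nr1d1 was 0.76 from Ciart, as far as the median gene compared with it (0.76). This measure includes the genotype difference for which every gene was listed, and the genes compared include some higher in KO. Ciart and Nr4a1 had similar log2 fold changes (-2.04 and -1.95). Within WT, replicate 3 was the lowest library in Ciart and the highest in Nr4a1. The genes most like Nr1d1 were Nr0b2 (0.20), Gja4 (0.27) and Fam102a (0.29). Nr0b2 stood at 14.6, 19.6 and 18.1 FPKM in WT and at 4.45, 13.5 and 5.75 in KO, with KO replicate 2 high as in Nr1d1. Those most like Ciart were Cyp4a31 (0.23), Gnat1 (0.27) and Trpm4 (0.27). Those most like Nr4a1 were AA986860 (0.13), Abhd2 (0.25) and Kctd17 (0.27). Those most like Hspb1 were Actg1 (0.13), Syt12 (0.21) and Samd10 (0.25). Actg1, which encodes γ-actin, stood at 113, 163 and 277 FPKM in WT and at 86.9, 90.5 and 85.5 in KO, so that WT replicate 3 was the highest library and WT replicate 1 the WT library nearest to KO.

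**Figure D5:**
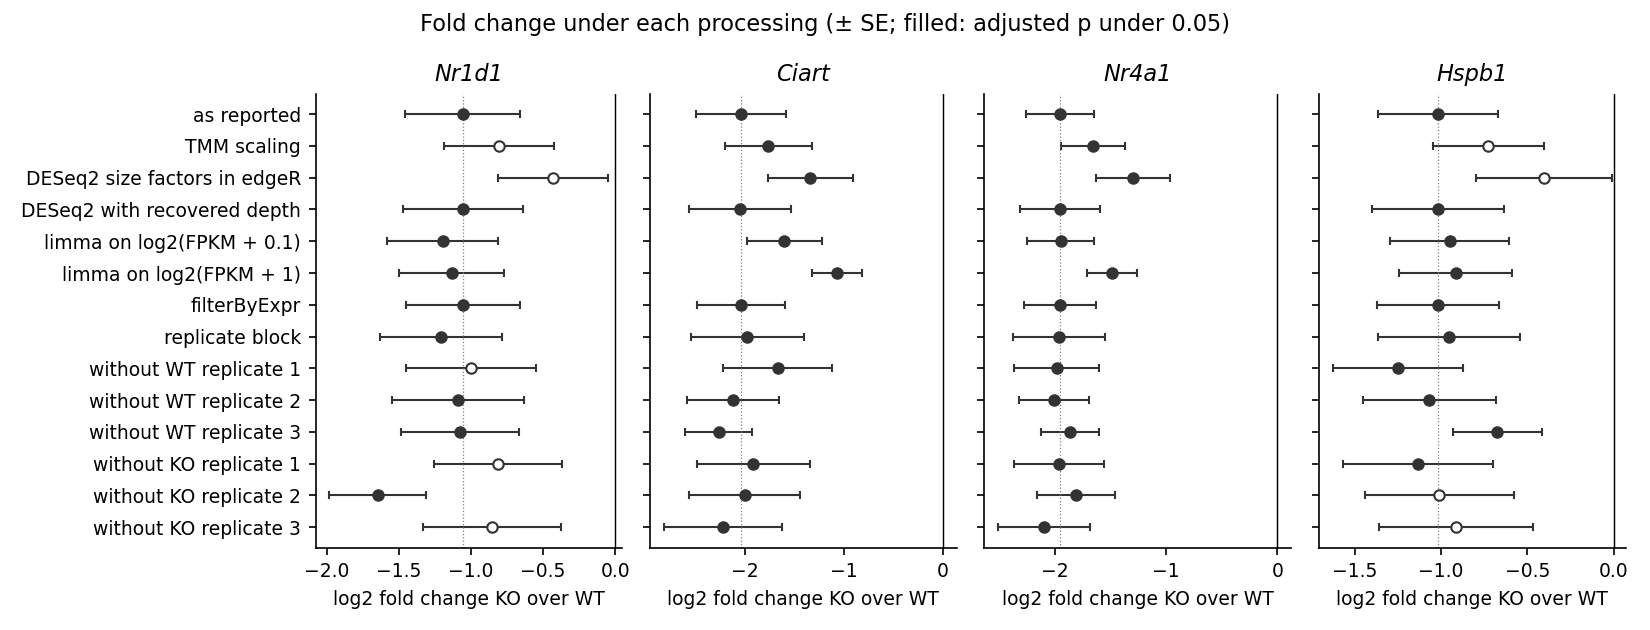
Log2 fold change of KO over WT (± SE) for each of the 4 genes as reported and under 13 alternative processings, with filled points for an adjusted p under 0.05. Nr4a1 and Ciart stay filled throughout, whereas Nr1d1 and Hspb1 have open points under 2 scalings and when certain libraries are left out. Those 2 scalings were computed from the listed genes alone.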

How the data were processed

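Liver RNA of 3 KO and 3 WT samples was sequenced. Per the labels' protocols, Trizol was used for extraction and a NEBNext Ultra RNA kit for the libraries. The submitters' processing notes name fastp 0.18.0, HISAT2, StringTie 1.3.1 and RSEM. Their roles, the build, the annotation and the use of strand were not given in the sources used here. Read counts and FPKM for each gene and library were deposited by the authors, with the log2 fold change of the group means, a p-value and an FDR, for 389 genes. The largest deposited FDR was 0.0494.

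Depth was recovered as the median of count over FPKM and transcript length for single-transcript genes with 50 or more counts and 1 or more FPKM. Positions are from GENCODE M21 (GRCm38), matched for 388 of 389 IDs, and promoters from RefSeq (GRCm38.p6), matched for all 4 genes. edgeR 4.0.16 (R 4.3.3) was run on the counts (quasi-likelihood, recovered depth as library size, no filter, Benjamini-Hochberg adjustment over the 389 genes) and was tested on simulated data. The SE is the fold change on the log2 scale, unsigned, over the root of the F statistic. Alternatives were TMM scaling, DESeq2 1.42.0 and its size factors, limma 3.58.1 on log2(FPKM + 0.1) or log2(FPKM + 1), a low-count filter, a replicate block, and leaving out each library. The ratio of Nr1d1 to Ciart was compared by exact permutation.

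The 4 genes and the 19 gene lists were chosen with earlier results of these data known. Named genes are the 4, every listed clock, immediate early and heat shock gene, up to 3 of each other list, and the 3 listed genes most like each of the 4. Other genes named beside these (the remaining marker genes, Dnajb9, the list members without a row and those of the deposited annotation) were named after their values were seen.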

Additional observations from a re-analysis of the deposited data

How the results depend on the processing

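Every alternative kept all 4 genes lower in KO. Nr4a1 and Ciart passed in all 13. Under TMM scaling Nr1d1 (log2 fold change -0.81, edgeR adjusted p = 0.0645) and Hspb1 (-0.73, edgeR adjusted p = 0.0533) did not pass. With DESeq2's size factors in edgeR they were at -0.43 and -0.40 (edgeR adjusted p = 0.305 and 0.338), Nr4a1 at -1.29 and Ciart at -1.34 (edgeR adjusted p = 0.00730 and 0.0221). These scalings moved the median listed gene by 0.27 and 0.66. Both were computed from the listed genes alone, all selected for a difference, whereas such scalings assume that most genes do not differ. The calls lost under them therefore cannot show how far Nr1d1 and Hspb1 depend on scaling. With the size factors 236 of the 389 genes passed in place of 388 (156 higher and 80 lower, 66.1% higher, against 155 and 233, 39.9%), and 1 of 4 clock output genes, 3 of 5 immediate early genes and 2 of 5 fasting genes passed. With TMM 1 of the 4 output genes passed, and 351 of all 389 genes (156 higher and 195 lower). Adjusted p over all alternatives ran from 0.00818 to 0.305 for Nr1d1, from 0.000301 to 0.0321 for Ciart and from 0.00946 to 0.338 for Hspb1.

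Leaving out 1 library gave log2 fold changes from -1.65 to -0.81 for Nr1d1, -2.27 to -1.67 for Ciart, -2.10 to -1.81 for Nr4a1 and -1.25 to -0.67 for Hspb1. Between 278 and 372 genes passed. The log2 ratio of Nr1d1 to Ciart differed by -0.21 to 0.89, reversed without KO replicate 2 (-0.21).

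KO and WT share replicate numbers, but the deviations of same-numbered libraries correlated at 0.07, 0.11 and -0.02, and 3 of 6 libraries correlated best with their own number, so the numbers were not taken as pairs. With the replicate block 382 genes passed, and log2 fold changes were -1.21 (Nr1d1), -1.98 (Ciart), -1.96 (Nr4a1) and -0.95 (Hspb1). The paired ratio difference was 0.50 (exact sign-flip p = 0.75). Among the 4 genes Ciart had the fewest reads, 17 to 27 per KO library.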

Other observations

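In the annotation columns of the authors' deposited table, 12 of the 389 listed genes carried a circadian or rhythmic process term, a list made after the data were seen. It held 9 genes lower in KO (Id1, Ciart, Ppara, Cldn4, Mtnr1a, Ppargc1a, Adcy1, Nr1d1 and Nr0b2; Cldn4 from 1 to 4 reads per KO library) and 3 higher (Srebf1, Atf4 and Ptgds), with a median log2 fold change of -1.21, against 59.9% lower and a median of -1.10 for all listed genes. Mtnr1a, which encodes a melatonin receptor, stood at 3.93, 4.05 and 2.56 FPKM in WT (replicates 1, 2 and 3) and at 1.43, 1.32 and 0.55 in KO (log2 fold change -1.67 ± 0.44, SE, edgeR adjusted p = 0.00923). Id1, which encodes an inhibitor of basic helix-loop-helix factors, stood at 42.2, 46.0 and 67.0 FPKM in WT and at 15.9, 25.8 and 22.4 in KO (log2 fold change -1.28 ± 0.33, SE, edgeR adjusted p = 0.00841). Ptgds, which encodes a prostaglandin D2 synthase, stood at 0.24, 0.16 and 0.13 FPKM in WT and at 0.49, 2.65 and 2.03 in KO, from only 4, 3 and 2 reads in WT and 8, 46 and 35 in KO (log2 fold change 3.23 ± 0.79, SE, edgeR adjusted p = 0.00775).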
